A study of Mus musculus with 8 samples.

Results

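Tudor domain genes of the germ granule were followed through mouse spermatogenesis on 8 oligonucleotide arrays of the type Mouse 430 2.0. The genes were Tdrd1, Tdrd3, Tdrd5, Tdrd6, Tdrd7, Tdrd9, Tdrd12, Tdrkh, Stk31 and Rnf17, and every probe set whose platform annotation named 1 of these genes and no other was taken. This gave 16 probe sets of 45037 that are not controls, for 9 of the 10 genes. No probe set named Tdrd6 alone, and that gene is not analysed here. Germ cells of the strain background BL/6-129 were taken at 4 stages (spermatogonia of type A and of type B, pachytene spermatocytes, round spermatids), with 2 arrays a stage, and the labels name no treatment. Each array held total RNA of its own cell preparation per the series' design text. The sources used here do not give the age of the mice, the way the cells were isolated or the purity of a preparation.

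Tudor domains are small folds that bind methylated arginines, and Piwi proteins carry such arginines. Tudor domain proteins thereby gather Piwi proteins and their small RNAs, the piRNAs, in germ granules, which lie between mitochondria in spermatogonia and spermatocytes and form the chromatoid body in round spermatids. In the mouse testis the pathway is known for silencing transposons and for producing the abundant piRNAs of pachytene cells. Type A and type B spermatogonia divide before meiosis, pachytene spermatocytes are in meiotic prophase, and round spermatids are haploid.

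The values are array signals on a linear scale, with a trimmed mean of 125 on every array as deposited. Each change is therefore relative to the rest of the array, and the number of arrays limits its precision. In these bulk preparations, fewer cells of a type and less RNA per cell cannot be told apart. Changes are given as log2(signal + 16) differences ± standard error, n = 2 arrays against 2, from a limma fit over 28623 probe sets and all 8 arrays, and a probe set was called at an adjusted p under 0.05. Where a gene had several probe sets, the one of highest mean signal was used to count it. Type B replicate 2 stood apart. Its summed signal of 8 round spermatid markers was 1581, against 97.4 to 140.8 on the other spermatogonial arrays, 2300 and 2729 on the pachytene arrays and 24070 and 28320 on the spermatid arrays. The 8 pachytene markers summed to 9027 there, against 2442 to 4545 on the other spermatogonial arrays, 16200 and 16600 in pachytene cells and 17400 and 17710 in spermatids. Much of that sum was Ldhc, at 4895.9 there and 28.3 to 39.6 on the other spermatogonial arrays. Piwil1, Hspa2, Pgk2 and Ccna1 were also highest there among the spermatogonial arrays. Sycp1 was lowest there (232), and Sycp3 and H1f6 lay within the range of the others. The 6 spermatogonial markers summed to 3814 on type B replicate 2 and to 5682 to 6160 on the other spermatogonial arrays. At the later stages they summed to between 577 and 1080. Somatic markers were present on the spermatogonial arrays. The 8 Sertoli cell markers summed to 4504 to 8782, the 6 peritubular and stromal markers to 8633 to 13400, the 6 macrophage markers to 537.9 to 888.7, and the 4 Leydig cell markers with a probe set to 630.9 to 1497.

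In spermatogonia the replicates of a type were often as far apart as the types. Levels of different probe sets cannot be set against each other, so each gene is described across stages only. Tdrd1, a scaffold that binds Piwil2, read 48.9 and 134.8 on the type A arrays and 70.9 and 76.1 on the type B arrays. The 2 type A preparations lay farther apart than the 2 groups. Tdrd9, an RNA helicase of transposon silencing, read 373.8 and 417 in type A and 384.3 and 262.5 in type B cells. Stk31, which joins a Tudor domain to a kinase-like domain, read 523.9 and 632.8 in type A and 781.9 and 505.1 in type B cells. For Tdrkh, a Tudor protein anchored at mitochondria where piRNA ends are trimmed, the values were 242.4 and 360.9, then 405.4 and 270.8. In Tdrd9, Stk31 and Tdrkh the ranges of the 2 types overlapped.

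No member was called between type B and type A spermatogonia, where the changes ran from -0.30 (Tdrd9) to 0.47 (Tdrd7). None of all genes was called either (0% higher and 0% lower), while at an unadjusted p under 0.05 the limma fit gave 1121 probe sets higher and 1201 lower, with no listed probe set among them. The type B replicates split the genes. In Tdrd7, Tdrd3, Tdrd12 and Tdrd5 replicate 2 read 1.83, 1.71, 1.70 and 1.37 times replicate 1. In Rnf17, Stk31, Tdrkh and Tdrd9 it read 0.64, 0.646, 0.668 and 0.683 times replicate 1, and Tdrd1 read 1.07. Type B replicate 2 is the array with raised sums of pachytene and spermatid markers and a lower sum of spermatogonial markers. The part of those markers in this split was not tested.

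Into the pachytene stage most of the genes rose. Of 9 genes, 7 rose against type A spermatogonia and none fell, where 26.6% of all 14155 genes tested rose and 34.8% fell. The count was also 7 higher and 0 lower against type B spermatogonia, where 24% of genes rose and 31.4% fell. The members' median change was 1.37 against type A and 1.33 against type B, beside medians over all genes of -0.14 and -0.07. The comparisons share the pachytene arrays. Leaving out single arrays kept the count higher at 7 or lowered it in either comparison.

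**Figure D1:**
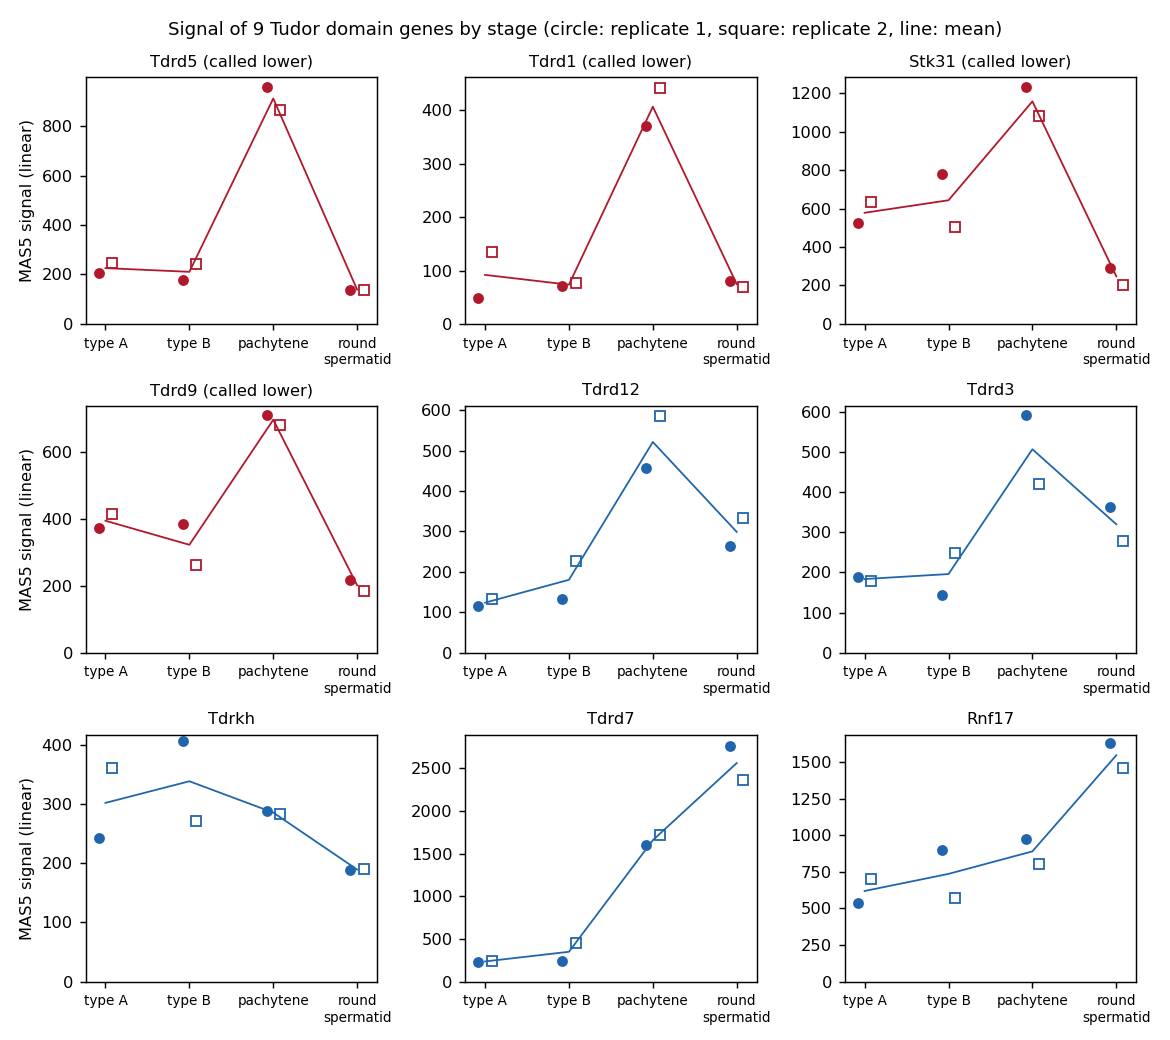
Signal (linear scale) of the highest-mean probe set of 9 Tudor domain genes by stage, in order type A, type B, pachytene and round spermatid. Circles are replicate 1, open squares replicate 2, and the line joins the means of 2 arrays; red panels are the 4 genes called lower in spermatids than in pachytene cells. Tdrd5, Tdrd1, Stk31 and Tdrd9 peak in pachytene cells and drop, while Tdrd7 and Rnf17 are highest in spermatids.

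Tdrd7, which is known for shaping the chromatoid body, had the largest rise of the 9 genes. It read 230.1 and 244.9 in type A cells, 247.9 and 453.3 in type B cells, and 1598.3 and 1715.9 in pachytene cells. Both pachytene arrays lay far above all 4 spermatogonial ones. The change against type A was 2.72 ± 0.28 (6.6-fold, adjusted p = 0.000246) and against type B 2.25 ± 0.28 (adjusted p = 0.000644).

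Tdrd1 read 371.2 and 442.5 on the pachytene arrays, above every spermatogonial value. Its change against type A was 2.09 ± 0.37 (adjusted p = 0.00183). Tdrd5, needed for transposon silencing and for spermatid maturation, went from 206.9 and 244.9 in type A and 177.7 and 243.8 in type B cells to 957.6 and 866.8 in pachytene cells. The groups did not overlap, and the change against type A was 1.94 ± 0.22 (adjusted p = 0.000309).

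Tdrd12, a helicase-like member of the piRNA amplification machinery, read 115.8 and 132.2 in type A cells, 133.8 and 227.2 in type B cells, and 456 and 586.5 in pachytene cells. It rose by 1.93 ± 0.28 against type A (adjusted p = 0.000816) and by 1.48 ± 0.28 against type B (adjusted p = 0.00347). Tdrd3 is expressed in many tissues and binds methylated arginines on histones. Its highest-mean probe set read 188.9 and 178.3 in type A cells, 144.7 and 247.4 in type B cells, and 591.7 and 421.3 in pachytene cells. It rose by 1.37 ± 0.30 against type A (adjusted p = 0.00516) and 1.33 ± 0.30 against type B (adjusted p = 0.00727, and 0.0557 without pachytene replicate 1).

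Tdrd9 and Stk31 rose by less. Tdrd9 read 712.4 and 683 in pachytene cells, a change of 0.80 ± 0.24 against type A (adjusted p = 0.0204) and 1.10 ± 0.24 against type B (adjusted p = 0.00597). Without type A replicate 1, pachytene replicate 1 or pachytene replicate 2, the type A comparison of Tdrd9 gave adjusted p = 0.0845, 0.0895 and 0.0752. Stk31 read 1232.6 and 1084.4 in pachytene cells, a change of 0.99 ± 0.28 against type A (adjusted p = 0.0177) and 0.86 ± 0.28 against type B (adjusted p = 0.0344). Leaving out type B replicate 2 brought its type B change to 0.55 (adjusted p = 0.159), a pseudocount of 1 gave adjusted p = 0.0554 there, and quantile normalization ended the call in both comparisons (adjusted p = 0.0672 and 0.0967). Leaving out type A replicate 1 or either pachytene array also ended the type A call of Stk31 (adjusted p = 0.0845, 0.0897 and 0.0535), and leaving out either pachytene array its type B call (0.147 and 0.088).

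Tdrkh and Rnf17 were not called. Tdrkh read 288.5 and 282.1 in pachytene cells, within the range of its spermatogonial values, with a change against type A of -0.05 (95% interval -0.67 to 0.57). Rnf17, a RING finger protein with several Tudor domains that spermatids need to develop, read 540.5 and 698.2 in type A, 898 and 574.3 in type B and 976 and 803.9 in pachytene cells. Its change against type A was 0.52 (95% interval -0.11 to 1.14), and with arrays centred on the 75th percentile or the median it was called at 0.90 and 0.85 (adjusted p = 0.0243 and 0.0419). Beside these rises, the summed signal of the 6 peritubular and stromal markers went from 8633 to 13400 in spermatogonia to 686.1 and 931.7 in pachytene cells. On the pachytene arrays these markers ranged from 2.1 (Col1a1) to 684.5 (Acta2). The part of the somatic cells in the members' changes was not tested.

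The region before the transcription start of the 7 genes that rose is shown because Mybl1, the MYB family factor known to switch on pachytene piRNA genes and their protein machinery, rose over the same stages (2.61 ± 0.28 against type A, adjusted p = 0.000268). RefSeq start sites in GRCm38.p6 were used for 8 of the 9 genes (all but Rnf17), and the 250 bases before each start were searched on both strands. Each sequence runs 5′ to 3′ towards the start, and for a gene with several starts the most upstream one is shown. Capitals mark the MYB family motif AACNGNC on either strand and the E-box CACGTG. The first 4 genes are those that fell in spermatids and the last 3 are not among them; the Tdrd3 window held neither motif and has no capitals.
Tdrd5 (chr1:156303349-156303598, - strand): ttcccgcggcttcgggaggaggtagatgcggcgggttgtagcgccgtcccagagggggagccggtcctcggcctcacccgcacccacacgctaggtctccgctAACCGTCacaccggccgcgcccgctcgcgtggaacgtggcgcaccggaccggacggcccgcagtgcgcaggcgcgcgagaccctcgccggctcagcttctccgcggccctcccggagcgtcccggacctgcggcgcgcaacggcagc
Tdrd1 (chr19:56825959-56826208, + strand): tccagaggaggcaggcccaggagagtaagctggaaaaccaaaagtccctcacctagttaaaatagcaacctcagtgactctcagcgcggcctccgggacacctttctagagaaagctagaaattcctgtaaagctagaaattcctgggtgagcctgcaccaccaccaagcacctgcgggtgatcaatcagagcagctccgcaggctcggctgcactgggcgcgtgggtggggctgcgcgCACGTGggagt
Stk31 (chr6:49395289-49395538, + strand): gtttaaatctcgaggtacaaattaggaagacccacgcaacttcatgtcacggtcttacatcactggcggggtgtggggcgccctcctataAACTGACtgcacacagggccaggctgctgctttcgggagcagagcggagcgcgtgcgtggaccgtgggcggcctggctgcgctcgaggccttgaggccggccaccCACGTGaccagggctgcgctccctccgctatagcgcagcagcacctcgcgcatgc
Tdrd9 (chr12:111971309-111971558, + strand): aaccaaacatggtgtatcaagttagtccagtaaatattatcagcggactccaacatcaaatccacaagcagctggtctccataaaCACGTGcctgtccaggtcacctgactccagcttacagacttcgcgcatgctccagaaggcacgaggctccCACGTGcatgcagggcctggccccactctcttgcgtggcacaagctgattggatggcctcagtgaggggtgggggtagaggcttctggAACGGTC
Tdrd12 (chr7:35537745-35537994, - strand): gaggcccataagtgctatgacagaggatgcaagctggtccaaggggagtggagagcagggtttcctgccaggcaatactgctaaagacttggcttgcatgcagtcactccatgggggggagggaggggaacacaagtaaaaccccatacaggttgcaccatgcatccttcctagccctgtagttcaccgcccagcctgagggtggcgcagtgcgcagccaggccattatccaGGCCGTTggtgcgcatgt
Tdrd7 (chr4:45965085-45965334, + strand): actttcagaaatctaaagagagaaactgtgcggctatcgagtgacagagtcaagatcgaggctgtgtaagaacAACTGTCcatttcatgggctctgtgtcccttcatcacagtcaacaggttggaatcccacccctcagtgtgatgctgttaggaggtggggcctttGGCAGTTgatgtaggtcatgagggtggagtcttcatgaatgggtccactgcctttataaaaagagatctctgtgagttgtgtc
Tdrd3 (chr14:87416333-87416582, + strand): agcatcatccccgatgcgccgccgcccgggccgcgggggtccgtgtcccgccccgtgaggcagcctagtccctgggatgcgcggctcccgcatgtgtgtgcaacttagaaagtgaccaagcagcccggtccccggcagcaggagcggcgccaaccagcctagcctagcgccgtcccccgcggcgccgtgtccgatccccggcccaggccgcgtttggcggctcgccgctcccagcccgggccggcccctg

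The motif AACNGNC was found before at least 1 start of 7 of the 8 genes and in 11 of their 14 windows, while 30.6% of all 27025 genes with a start and 27.7% of all 32851 windows hold it. Tdrd1 had it only before its most downstream start. Tdrd3, which rose into pachytene, had none, while Tdrkh, which was not called there, had 2 matches. The 8 genes have more windows per gene than all genes do, which can raise their share of genes with a match. Windows of 1 gene overlap in Stk31, Tdrd12 and Tdrd1, so they repeat some of the same matches. The shorter core AACNG, contained in the longer motif, was found in 7 of 8 genes and in 76.8% of all genes. The E-box CACGTG was found in 3 genes, Tdrd1, Tdrd9 and Stk31, and in 6.86% of all genes. Those 3 are among the 4 genes that fell in spermatids, and no window of Tdrd3, Tdrd7, Tdrd12 or Tdrkh held it. The cyclic AMP response element TGACGTCA was found in none of the 8 genes (1.77% of all genes) and its part TGACG in Tdrd1, Tdrd5 and Tdrd7 (19.8% of all genes). These matches describe letters in a window and were not tested.

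From pachytene spermatocytes to round spermatids the genes parted. Of the 9 genes 4 fell and none was called higher, where 17% of all genes fell and 14.9% rose. Of the 15 probe sets tested, 8 fell, where 15.7% of all probe sets did. Stk31 and Tdrd3 enter this count with several probe sets each. The weakest Tdrd3 probe set passed the filter through the pachytene arrays alone, and its call was lost under many alternative settings. The 4 genes that fell were Tdrd5, Tdrd1, Stk31 and Tdrd9. They were called lower under each of the 18 alternative settings, 8 of which left out 1 array.

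**Figure D2:**
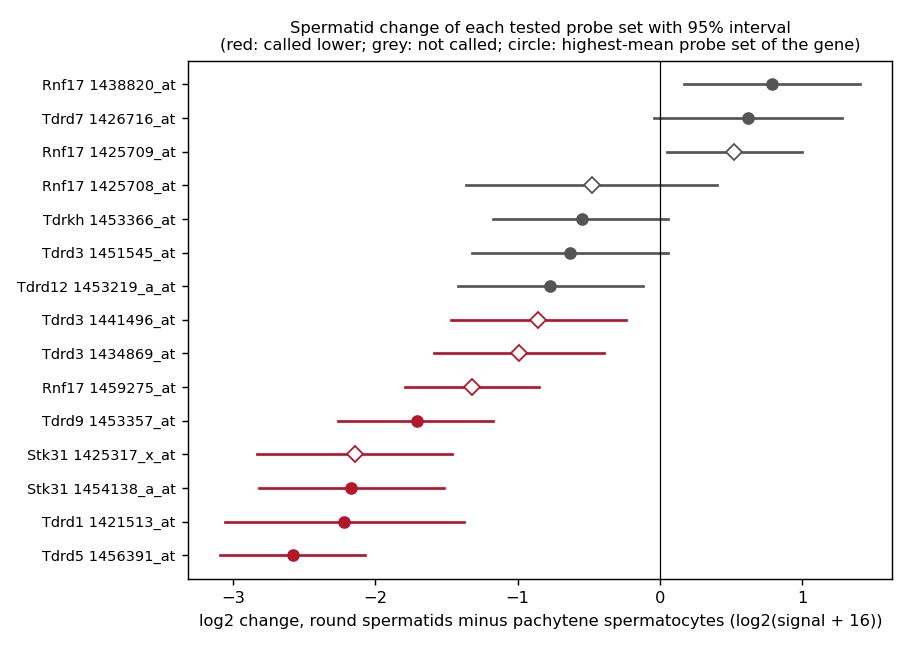
Change from pachytene spermatocytes to round spermatids, on the log2(signal + 16) scale, of the 15 tested probe sets of Tudor domain genes, with 95% intervals of the limma fit. Filled circles are the highest-mean probe set of a gene and open diamonds its other probe sets; red is called lower and grey not called. The 4 genes that fell lie between -2.58 and -1.71, and the probe sets of Rnf17 lie on both sides of 0.

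Tdrd5 had the largest fall, to 138.9 and 138.7 in spermatids, a change of -2.58 ± 0.22 (5.99-fold lower, adjusted p = 0.000208). The spermatid values lay below those of every earlier array. Tdrd1 fell to 80.8 and 68.5, a change of -2.22 ± 0.37 (adjusted p = 0.00339), back among its spermatogonial values. Stk31 fell to 292.9 and 202.8, a change of -2.17 ± 0.28 (adjusted p = 0.00115), below all its spermatogonial values. A second probe set of Stk31 read 297 and 190.4 in spermatids and 1175.3 and 1044.6 in pachytene cells, with a change of -2.14 ± 0.30. Tdrd9 fell to 219.3 and 185.1, a change of -1.71 ± 0.24 (adjusted p = 0.0015), also below all its spermatogonial values.

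Tdrd12, Tdrd3 and Tdrkh read lower in spermatids without being called. Tdrd12 read 265 and 332.8 in spermatids, a change of -0.77 (95% interval -1.42 to -0.12, adjusted p = 0.0818). Both spermatid arrays lay below both pachytene arrays and above all spermatogonial ones. With a pseudocount of 64 or with the replicate number as a block, Tdrd12 was called lower (adjusted p = 0.0476 and 0.0413), as it was without either type B array (0.0359). Tdrd3 read 362.4 and 277.1, a change of -0.63 (95% interval -1.32 to 0.06), and Tdrkh 189 and 189.5, a change of -0.55 (95% interval -1.17 to 0.06). The Tdrkh values in spermatids were the lowest of its 8 arrays.

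Tdrd7 and Rnf17 read highest in spermatids. Tdrd7 read 2762.8 and 2356.5, a change of 0.62 from pachytene cells (95% interval -0.04 to 1.28, adjusted p = 0.154). Rnf17 read 1630.3 and 1462.1, a change of 0.79 (95% interval 0.17 to 1.41, adjusted p = 0.0642). In both genes the 2 spermatid arrays lay above the other 6. Without type B replicate 1 or without type B replicate 2, both were called higher (adjusted p = 0.0444 for Tdrd7 and 0.0308 for Rnf17 in either case); type B enters this comparison only through the spread, which the fit pools over the 4 groups. The Rnf17 call was also made with a pseudocount of 64, an intensity trend and 1 probe set per gene (adjusted p = 0.0367, 0.0435 and 0.0482).

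The 5 genes that were not called lower are grouped here by the result of a test, and for Tdrd12, Tdrd3 and Tdrkh the intervals include falls of over 1 log2 unit. Between type B and type A spermatogonia, whose arrays enter the grouping through the pooled spread, the 4 genes that fell had a median of -0.12 (-0.30 to 0.12) and the other 5 a median of 0.22 (0.04 to 0.47). Into pachytene from type A the medians were 1.46 (0.80 to 2.09) and 1.37 (-0.05 to 2.72), and the ranges overlapped. The latter comparison also shares the pachytene arrays with the grouping, and neither is independent of it. The sums of the Sertoli and Leydig cell markers were lower in spermatids as well, and those of the other somatic lists read higher. The 8 Sertoli cell markers summed to 3278 and 4457 in pachytene cells and 694.5 and 811 in spermatids. Clu (1833.1 and 2462.9 in pachytene cells) and Amhr2 (995.3 and 1482) made most of that pachytene sum, and 5 of the 8 were called lower. The 4 Leydig cell markers summed to 516.8 and 945, then 88.5 and 88.8, and all 4 were called lower. The 6 peritubular and stromal markers summed to 686.1 and 931.7 in pachytene cells and 1135 and 996 in spermatids, and the 6 macrophage markers to 228.8 and 221.3 in pachytene cells and 446.7 and 429.6 in spermatids. Of the macrophage markers, Lyz2 and Csf1r were called higher (1.29 ± 0.20 and 1.00 ± 0.24), and the others, at 0.02 to 0.68, were not. Of the peritubular and stromal markers, Dcn and Col1a1 were called higher (2.01 ± 0.35 and 1.07 ± 0.25). Lum stood at 0.81, and Col3a1, Acta2 and Myh11 at 0.11, -0.04 and -0.03, none of them called. The part of the somatic cells in the falls was not tested.

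Probe sets of 1 gene did not always move together, and Rnf17 was the clearest case. Its highest-mean probe set and a second one (198.6, 206.8, 226, 171.2, 238.3, 236.8, 356.4 and 340 from type A to spermatids) were highest in spermatids. The second one changed by 0.52 ± 0.21 from pachytene to spermatids (adjusted p = 0.101). Another read 148.6 and 151.9 in type A, 144.8 and 146.3 in type B, 777 and 654.9 in pachytene cells, and 304.9 and 251.3 in spermatids. This probe set rose by 2.13 ± 0.20 into pachytene from type A (adjusted p = 0.000193) and fell by 1.32 ± 0.20 into spermatids (adjusted p = 0.00254). The last one read 94.9 and 208.2 in type A, 244 and 142.6 in type B, 212 and 281.8 in pachytene cells and 187.9 and 154.9 in spermatids, and was called in no comparison. It was called higher in pachytene than in type A cells with arrays centred on the 75th percentile (1.11, adjusted p = 0.0415) and without type A replicate 2 (1.23, adjusted p = 0.0252). With the mean of its 4 probe sets, Rnf17 changed by -0.12 into spermatids (adjusted p = 0.724) and rose by 0.90 into pachytene from type A (adjusted p = 0.00759). Rnf17 is known to make long and short transcripts. The sources used here do not say which transcript each probe set reads.

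**Figure D3:**
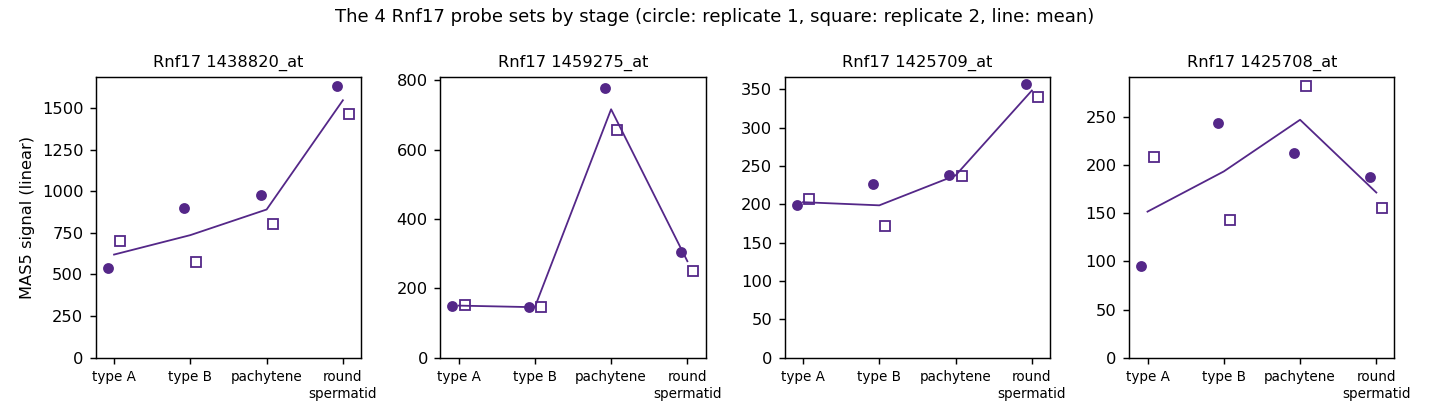
Signal (linear scale) of the 4 Rnf17 probe sets by stage, in order type A, type B, pachytene and round spermatid, with replicate 1 as circles, replicate 2 as open squares and a line through the means of 2 arrays. From the left, the first and the third panel are highest in spermatids, and the second is highest in pachytene cells, at 777 and 654.9.

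Tdrd3 had 3 probe sets. The weaker ones read 78.2, 73, 75.3, 81.4, 109.2, 60.7, 30.9 and 35.9, and 19.6, 36.4, 24.2, 20.4, 58.3, 35.6, 17.9 and 18.5, in order from type A to spermatids. Neither was called into pachytene from type A (0.10 ± 0.26 and 0.52 ± 0.27). The weakest was called higher there after quantile normalization and with arrays centred on the 75th percentile or the median (0.83, 0.90 and 0.85). It lay above the array median on the pachytene arrays alone and passed the filter through them. Its changes into and out of pachytene are therefore not independent of the filter. Both weaker probe sets were called lower in spermatids than in pachytene cells (-0.99 ± 0.26, adjusted p = 0.0242, and -0.86 ± 0.27, adjusted p = 0.0474). The first of these calls was lost without pachytene replicate 1 or either spermatid array (adjusted p = 0.162, 0.126 and 0.0943). The second was lost under 10 of 16 alternative settings, with adjusted p from 0.0355 to 0.276 over all 16, among them leaving out any pachytene or spermatid array. With the mean of its probe sets, Tdrd3 was called lower in spermatids (-0.83, adjusted p = 0.0251). That mean includes the probe set that passed the filter through the pachytene arrays. A second probe set of Tdrd7 read 0.9 to 18.1 on all arrays, below the array median on each, and was not tested.

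Set against type A spermatogonia, spermatids kept a higher level of 3 genes and a lower one of 3 others, where 27.5% of all genes were higher and 41% lower. Tdrd7 was 10.1-fold higher (3.34 ± 0.28, adjusted p = 6.23e-05), Rnf17 2.47-fold (1.31 ± 0.27, adjusted p = 0.00347) and Tdrd12 2.24-fold (1.16 ± 0.28, adjusted p = 0.0076, and 0.0571 without spermatid replicate 2). Stk31, Tdrd9 and Tdrd5 stood at -1.19 ± 0.28, -0.92 ± 0.24 and -0.64 ± 0.22 (adjusted p = 0.0068, 0.0098 and 0.0342). These 3 lower calls changed with the scaling. With arrays centred on the 75th percentile none was called (adjusted p = 0.0559, 0.129 and 0.472), and with arrays centred on the median Stk31 alone was. Without spermatid replicate 2 none was called either (0.0563, 0.0655 and 0.112), and Tdrd5 was also not called after quantile normalization (0.313) or without any other type A, pachytene or spermatid array. Tdrd1, Tdrd3 and Tdrkh were not called, at -0.13, 0.74 and -0.60 (95% intervals -0.97 to 0.71, 0.05 to 1.43 and -1.22 to 0.01). Tdrd1 was called lower without type A replicate 1 (-0.74). The highest-mean Tdrd3 probe set was called higher without either type B array, under the other scalings and with a pseudocount of 64. It was also called higher with 1 probe set per gene. The Tdrd3 probe set of middle signal was called lower (-0.89 ± 0.26, adjusted p = 0.0169), though not under the other scalings. The weakest read -0.34 ± 0.27 and was not called. The mean of the Tdrd3 probe sets read -0.16 (adjusted p = 0.538). Tdrkh was called lower without type A replicate 1 (-0.88, adjusted p = 0.0388) and without either type B array (-0.60, adjusted p = 0.0497).

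Over the 8 arrays, which share their stages, Tdrd9 and Stk31 had the most similar course (Pearson r = 0.958 of log2 signals), followed by Tdrd1 and Tdrd5 (0.935). Tdrd3 and Tdrd12 stood at 0.897 and Tdrd7 and Tdrd12 at 0.842. Tdrd7 and Tdrkh ran most unlike each other (-0.687). Of the 36 pairs, 8 had r over 0.8 and 9 were below 0, with a median of 0.395. The genes most like Tdrd5, the member with the lowest spermatid change, were Zfp286 (0.997), Dennd5b (0.990) and Cdc42ep4 (0.988), and 122 of 14154 genes had r over 0.95. Dennd5b read 621.7 and 533.4 in pachytene cells and 60.5 and 45.7 in spermatids. The genes most like Rnf17, the member with the highest spermatid change, were Prph (0.987), Ckap2l (0.982) and Fam160a2 (0.979), and 40 had r over 0.95. Prph read 33.9 to 80.5, beside array medians of 33.7 to 51.9. These values use the highest-mean probe set of each gene. Another Rnf17 probe set changed by -1.32 into spermatids, so the likeness holds for the probe set used.

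Partners of these proteins in the germ granule and the piRNA pathway, 18 of 23 listed genes with a probe set, moved in both ways. Of the 18, 10 rose into pachytene from type A and 4 fell, where 26.6% of all genes rose and 34.8% fell, with a median of 0.95. Piwil1, the Piwi protein of pachytene piRNAs, rose most (5.36 ± 0.58, adjusted p = 0.000268), from 17.7 and 36.2 to 1791.5 and 1620.7. Hspa2, a chaperone of meiotic cells, rose by 3.39 ± 0.56. Piwil1 and Hspa2 are also on the list of pachytene markers, so their rises are not independent of how the genes were chosen. Tex15 and Piwil4, which act in the silencing of transposons before birth, fell by 3.40 ± 0.50 and 2.45 ± 0.39. Against type B, 11 rose and 3 fell (24% and 31.4% of all genes), with fewer higher without either pachytene array and more lower without type B replicate 2. Between the spermatogonial types none was called, as for all genes (0%). Some partners were called without type B replicate 1, a fit in which type B replicate 2 alone stands for type B.

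Into spermatids 6 of the 18 partners fell and 1 rose (2 without either type B array), where 17% of all genes fell and 14.9% rose, with a median of -0.35. Piwil1 fell by 2.60 ± 0.58 (adjusted p = 0.0127) to 309.3 and 230.9, and Pld6, the mitochondrial nuclease that starts piRNA cleavage, changed by -2.21 ± 0.27 (adjusted p = 0.000821). Piwil2 (-1.86 ± 0.25), Mybl1 (-1.64 ± 0.28), Gpat2 (-1.56 ± 0.25) and Exd1 (-1.09 ± 0.19) fell too. Tex15 rose by 3.04 ± 0.50, from 151.8 and 116.3 to 1334.9 and 1103.3. The granule helicase Ddx4 and the granule protein Mael were not called, at 0.00 ± 0.23 and 0.18 ± 0.23. Ddx4 read 2921.1 and 2797.8 in pachytene cells and 3211.9 and 2555 in spermatids. Mybl1, Piwil2, Gpat2, Exd1, Ddx4 and Mael were picked for naming after their values were seen.

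**Figure D4:**
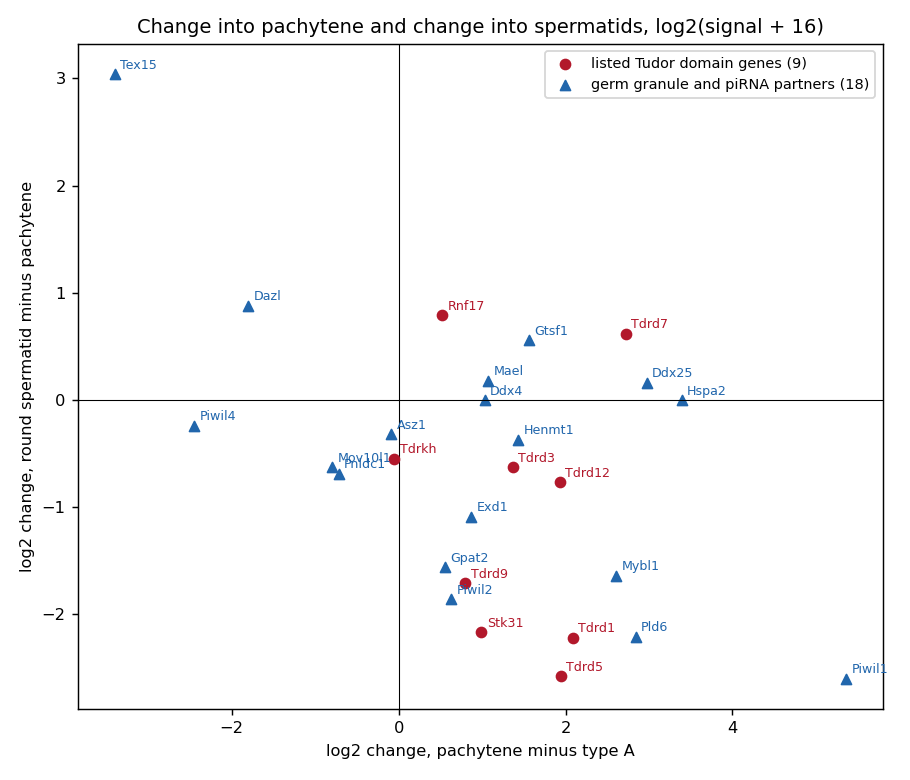
Change from type A spermatogonia to pachytene spermatocytes (horizontal) against change from pachytene spermatocytes to round spermatids (vertical), both on the log2(signal + 16) scale, for 9 Tudor domain genes (red circles) and 18 germ granule and piRNA partners (blue triangles). Both axes use the pachytene arrays, so a gene with a high pachytene reading is pushed to the lower right. Tdrd1, Tdrd5, Pld6 and Piwil1 lie at the lower right, and Tdrd7 lies above 0 on both axes.

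Genes with a Tudor domain outside the germ granule list, mostly chromatin proteins, fell more often than they rose, as did all genes tested. Of 21, 2 rose and 11 fell into pachytene from type A (26.6% and 34.8% of all genes), with a median of -0.68. Against type B, 1 rose and 9 fell (24% and 31.4% of all genes). Phf1 and Uhrf1 rose (2.56 ± 0.22 and 0.71 ± 0.23), and Spin1 and Msl3 fell by 2.54 ± 0.20 and 1.93 ± 0.24. The pachytene falls numbered 7 with arrays centred on the 75th percentile or without type A replicate 1, and 6 without pachytene replicate 2. The rises numbered 1 after quantile normalization and without type A replicate 1 or either pachytene array. No gene of this list was called between the spermatogonial types. Into spermatids 3 rose and 5 fell (14.9% and 17% of all genes), with a median of -0.18. Sgf29, a reader of histone methylation, rose by 3.96 ± 0.30 (adjusted p = 0.000146), and Akap1, a mitochondrial anchor protein, by 3.66 ± 0.26 (adjusted p = 0.00013), from 122.7 and 84.3 to 1455.3 and 1504.9. Lbr and Arid4a fell by 1.48 ± 0.27 and 1.00 ± 0.24. Of these falls, 0 were called without spermatid replicate 2, 1 without spermatid replicate 1 or without pachytene replicate 1, and 2 without pachytene replicate 2. Against type A, spermatids had 8 of 18 partners higher and 6 lower, and 3 of 21 other Tudor domain genes higher and 14 lower, where 27.5% of all genes were higher and 41% lower.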

How the data were processed

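The deposited values are intensity readings, 1 for each probe set on each array, which the submitters' processing notes credit to MAS5 without a version. Gene names came from the platform's annotation, with symbols brought up to date by Entrez number in a gene table of GRCm38.p6. Of 45101 probe sets, 64 were controls, 34945 named exactly 1 gene, 932 several and 9160 none; 34741 matched the gene table. A probe set was tested when it lay above the array median on at least 2 of 8 arrays, which kept 28623 probe sets, 14155 of them the highest-mean probe set of a gene, and 15 of the 16 listed ones. Values were analysed as log2(signal + 16), and a fold change on this scale understates changes of low signals. Tests were two-sided and came from limma 3.58.1 (R 4.3.3): lmFit on group means, then eBayes without trend, at 4 residual and 3.91 prior degrees of freedom, with Benjamini-Hochberg adjustment over all probe sets tested. Alternatives changed the pseudocount, the filter, the scaling, the choice of probe set, the trend, the block and the arrays kept. A fit with an array left out keeps a single array in that group, and the share of all probe sets called changed in such fits too. The fit was also run on simulated data with large planted changes in probe sets of high signal. Smaller changes were not simulated. The members, gene lists, comparisons and alternatives were chosen with earlier results of these data known. All members are named; of the partner and other Tudor lists, the 2 called genes with the largest rise and the 2 with the largest fall in pachytene against type A and in spermatids against pachytene; and the 3 genes of highest Pearson r with the members of lowest and highest spermatid change. Promoter windows are the 250 bases before each RefSeq start. Same-numbered replicates had deviations from their group means that correlated at -0.271 to 0.351, and the main comparison used no pairing. Figures were drawn with matplotlib 3.10.9.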

Additional observations from a re-analysis of the deposited data

How the results depend on the processing

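Of 180 counts of listed genes recomputed (10 counts under 18 alternatives), 172 stayed within 1.5 times the reported count. A reported 0 that stayed at 0 is among these. This holds for both counts of type B against type A and for the counts called lower in pachytene cells. The count called higher from pachytene to spermatids was 1 with a pseudocount of 64, with an intensity trend and with 1 probe set per gene in the fit, and 0 to 2 when single arrays were left out, against 0 reported. The count called lower in spermatids against type A was 0 with arrays centred on the 75th percentile, 1 when centred on the median, and 0 to 4 when single arrays were left out, against 3 reported. Centring moved the median of all probe sets between pachytene and type A from -0.27 to 0.11 (75th percentile) and 0.06 (median), and between spermatids and type A from -0.46 to -0.01 and -0.13. Every sign change among single probe sets was in a value not called under either setting. Tdrkh from type A to pachytene read 0.00 after quantile normalization, 0.33 (75th percentile) and 0.28 (median) after centring, and -0.32 to 0.22 with single arrays left out; from type B it read 0.12 and 0.01 with the same centrings and -0.48 to 0.07. Tdrd1 from type A to spermatids read 0.32 after quantile normalization, 0.31 and 0.20 with those centrings and -0.74 to 0.48 with single arrays left out. With the mean of its probe sets, Rnf17 read -0.12 into spermatids from pachytene cells, and Tdrd3 -0.16 in spermatids against type A and -0.03 in type B against type A. The weakest Tdrd3 probe set read 0.11 in spermatids against type A when centred on the 75th percentile, and Tdrd5 read 0.02 in type B against type A when centred on the median. With single arrays left out, the changes between type B and type A ran from -0.75 to 0.46 for Tdrd1, -0.31 to 0.40 for Tdrd3, -0.32 to 0.11 for Tdrd5, -0.12 to 0.43 for Tdrkh, -0.18 to 0.43 for Stk31 and -0.09 to 0.54 for Rnf17. The middle of the 3 Tdrd3 probe sets by signal ran from -0.26 to 0.45 into pachytene from type A and -0.30 to 0.41 from type B, Rnf17 from -0.02 to 0.61 into pachytene from type B, and the Rnf17 probe set of lowest mean signal from -0.26 to 0.75 in spermatids against type A. Of the other Tudor domain genes, 3 rose into pachytene from type B when centred on the 75th percentile and 2 with the mean of probe sets (1 reported); 5 fell into spermatids as reported, 3 with a pseudocount of 1, no filter, the 75th percentile or the mean of probe sets, and 2 after quantile normalization. The fit with a replicate block gave 7 listed genes higher into pachytene from either spermatogonial group and 5 lower in spermatids against pachytene, with Tdrd12 added at -0.77 (adjusted p = 0.0413), ended the spermatid call of the weakest Tdrd3 probe set (adjusted p = 0.0711), and changed no other call of a listed gene. Preparations were separate per the series' design text, and the replicate numbers were not taken as pairs in the main fit. The deviations of same-numbered arrays correlated at -0.271 to 0.351. With 2 arrays a group, these values cannot tell whether same-numbered arrays were handled together. Of the 16 listed probe sets, 1 lay below the array median throughout; how far signals stood above background was not assessed.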
